A study of Mus musculus with 114 samples.

Results

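The genes described here are 8 genes of antibody sensing: the IgG receptors Fcgr1, Fcgr2b, Fcgr3 and Fcgr4, the signalling adaptors Fcer1g and Tyrobp, the kinase Syk, and Fcgrt, which encodes the heavy chain of the neonatal Fc receptor. They were taken by their symbols from a table of 29132 genes, all 8 were listed, and all 8 passed the filter on low values. The table held reads scaled to a sum of 1000000 in each mouse (CPM) for the adipocyte fraction of perigonadal white adipose tissue (PGWAT) from 38 male C57BL/6J mice, which were 6 weeks old when the diets began. For 8, 20 or 34 weeks the mice ate either control chow (CD) or a high-fat diet (HFD). The methods list alternative formulas of the control diet without assigning them to groups. There were 6 mice in each group except the CD group at 34 weeks, which had 8. All mice were wild type and carried no transgene, and each mouse was 1 replicate. The fraction was obtained as the cells that float after collagenase digestion and was not sorted further. The adipocyte markers Adipoq, Plin1, Fabp4, Cidec, Lipe, Pnpla2, Lep, Retn and Cfd summed to between 16537 and 68535 CPM in every mouse, and transcripts of macrophages were present in every mouse as well. Depth ran from 9275711 to 15480388 reads per mouse, so that 1 read was worth 0.0646 to 0.108 CPM.

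Fc gamma receptors are surface proteins of myeloid cells that bind the constant part of IgG. The activating receptors Fcgr1, Fcgr3 and Fcgr4 signal through the gamma chain encoded by Fcer1g, whose tail holds an immunoreceptor tyrosine-based activation motif (ITAM). Src family kinases phosphorylate the tyrosines of the ITAM, and the kinase Syk docks on them and passes the signal on. Tyrobp, also called DAP12, is another ITAM adaptor and couples to receptors such as Trem2. Fcgr2b is the inhibitory IgG receptor: its tail holds an inhibitory motif (ITIM), through which it recruits the lipid phosphatase encoded by Inpp5d. The neonatal Fc receptor belongs to the MHC class I-like proteins, pairs with the light chain encoded by B2m, and binds IgG and albumin in endosomes, which spares them from degradation. It carries no ITAM, and many cell types outside the myeloid lineage express it. Macrophages of adipose tissue are known carriers of the Fc gamma receptors and of both adaptors.

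The coding bases of the signalling motifs are shown because they set the members apart by role. A tyrosine codon followed after 2 codons by a leucine or isoleucine codon, then the same again after 6 to 12 codons, occurred in the coding sequences of Fcer1g and Tyrobp and of no other member. In both, 7 codons lay between the parts. The stretch of Fcer1g covered codons 65 to 79 of 86 and lay in 2 exons within chr1:171229889-171230072 (GRCm38, minus strand). That of Tyrobp covered codons 92 to 106 of 114 and lay in 2 exons within chr7:30415670-30417382 (plus strand). For Fcgr2b the stretch of the inhibitory motif in its tail is given, codons 317 to 322 of 340, in 1 exon at chr1:170961071-170961088 (minus strand). It was found as a tyrosine codon with a codon for isoleucine, leucine, valine or serine 2 codons before it and one for leucine or valine 3 codons after it. This is a loose pattern, which also occurred at 2 places in Fcgr1 and 1 each in Fcgr4, Fcer1g, Fcgrt and Tyrobp, where the one of Tyrobp takes in the first tyrosine of its ITAM. Sequences were read from GENCODE vM21 transcripts, 5′ to 3′ on the coding strand, and capitals mark the tyrosine codons and the leucine codons paired with them.
Fcer1g: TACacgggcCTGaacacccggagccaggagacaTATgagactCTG
Tyrobp: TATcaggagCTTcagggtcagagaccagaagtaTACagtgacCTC
Fcgr2b: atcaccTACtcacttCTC

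On GRCm38, Fcgr2b, Fcgr4, Fcgr3 and Fcer1g lie within 273.792 kb of chromosome 1, in that order from chr1:170960558 to chr1:171234349. Fcgr1 lies on chromosome 3, Tyrobp and Fcgrt on chromosome 7 and Syk on chromosome 13. Fcgr2b and Fcgr3 are close copies in their extracellular part. Of the distinct 50-base stretches of Fcgr3 transcripts, 9.58% also occurred in Fcgr2b, and 2.92% of those of Fcgr2b occurred in Fcgr3, so a read lying wholly within such a stretch could not be assigned to one gene. No 50-base stretch of the other 6 members occurred in another member. Fcgr2b and Fcgrt are overlapped on the opposite strand by the antisense genes Gm38204 and Gm45669. Whether counting used the strand was not stated, so reads of these partners cannot be told apart from reads of the members.

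The 250 bases before the start of the activating receptors Fcgr1 and Fcgr3 and of the inhibitory receptor Fcgr2b are shown as a description. The windows are from RefSeq on GRCm38.p6, written 5′ to 3′ on the gene's strand, and capitals mark GAGGAA on either strand (TTCCTC), the core that the myeloid transcription factor PU.1 recognises. Of the 7 members with a window in the table, Fcgr1, Fcgr3, Fcgr4 and Syk held the core in at least 1 window. So did 25.9% of 27025 genes, and 23.3% of all 32851 windows held it. The Fcgr1 window is chr3:96293970-96294219, the Fcgr3 window (1 of 2 annotated starts) chr1:171059395-171059644 and the Fcgr2b window chr1:170976072-170976321, all on the minus strand.
Fcgr1: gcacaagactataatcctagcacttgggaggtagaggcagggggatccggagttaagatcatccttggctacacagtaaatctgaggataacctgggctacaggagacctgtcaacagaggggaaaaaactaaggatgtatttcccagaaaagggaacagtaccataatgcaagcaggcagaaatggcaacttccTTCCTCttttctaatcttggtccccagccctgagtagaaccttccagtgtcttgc
Fcgr3: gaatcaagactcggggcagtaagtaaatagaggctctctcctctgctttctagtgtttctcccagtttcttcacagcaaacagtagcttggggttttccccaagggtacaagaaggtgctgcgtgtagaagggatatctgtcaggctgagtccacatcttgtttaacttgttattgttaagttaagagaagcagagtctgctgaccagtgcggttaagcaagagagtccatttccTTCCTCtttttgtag
Fcgr2b: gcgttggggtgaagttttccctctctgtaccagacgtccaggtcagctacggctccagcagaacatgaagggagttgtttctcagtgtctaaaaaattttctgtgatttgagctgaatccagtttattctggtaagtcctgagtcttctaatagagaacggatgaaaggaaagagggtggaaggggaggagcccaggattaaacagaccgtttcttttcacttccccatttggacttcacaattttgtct

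The windows of Fcgr1 and Fcgr3 shared a run of 14 bases around the core, TTCCTTCCTCTTTT, which began 59 bases before the Fcgr1 start and 19 bases before the Fcgr3 start. The longest shared run of the other 20 pairs of members had 7 to 10 bases, with a median of 8. The run occurred in 3 of the 32851 windows, those of Fcgr1, Fcgr3 and Entpd1. The other Fcgr3 window, chr1:171059404-171059653, overlapped the one shown and ended at the core, so that its edge cut the run off. Fcer1g, which rose with HFD in the values given further on, held no core in its window. These matches describe the letters of the windows and were not tied to binding or to the levels of the members.

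With HFD, the activating receptors, both adaptors and Syk were higher than in CD at 20 and 34 weeks, the inhibitory receptor Fcgr2b was called only at 8 weeks, and Fcgrt was the member without a rise at any time. Called means an adjusted p under 0.05 over all 10343 genes tested on log2(CPM + 1), and all fold changes below are on that scale. At 8 weeks 5 of 8 members were called, all higher in HFD, against 44.9% of all tested genes called and 29.8% called and higher. At 20 weeks 6 of 8 were called, all higher, against 57.0% called and 38.3% called and higher. At 34 weeks 6 of 8 were called, all higher, against 43.2% called and 27.5% called and higher. The median log2 fold change of the 8 members was 1.39 at 8 weeks, 2.62 at 20 weeks and 1.42 at 34 weeks, beside 0.11, 0.14 and 0.07 for all tested genes. At 34 weeks edgeR and DESeq2 on whole reads each called 3 members, Fcgr3, Tyrobp and Syk, and a fit of those 2 groups alone called Fcgr3 and Tyrobp. In whole-fraction RNA a change in the number of cells that carry a transcript and a change in RNA per cell cannot be told apart.

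Markers of macrophages moved with these members. The summed CPM of Csf1r, Cd68, Mertk, Cd163, Mrc1, C1qa, C1qb, C1qc, Lyz2 and Cd14 ran from 450 to 1741 in CD and from 1144 to 3137 in HFD at 8 weeks. At 20 weeks it ran from 1066 to 3421 in CD and from 4443 to 9050 in HFD, and at 34 weeks from 1210 to 12635 and from 5121 to 15405. Of these 10 markers, 6 were called higher at 8 weeks, 6 higher (Cd68 most, by 3.29) and Cd163 lower (-1.35) at 20 weeks, and 8 higher at 34 weeks. The adipocyte markers fell in sum over the same contrast, with medians of 58475 CPM in CD and 27831 CPM in HFD at 20 weeks, where Cfd fell most (-4.03) and Lep was called higher (2.90). The part of the macrophage content in the diet differences was not tested by a sort or a count of cells; with the mean of these markers as a covariate 3 members were called at 8 weeks, 6 at 20 weeks, of which Fcgr2b was lower in HFD, and 1 at 34 weeks, and each member's values are given with it.

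**Figure D1:**
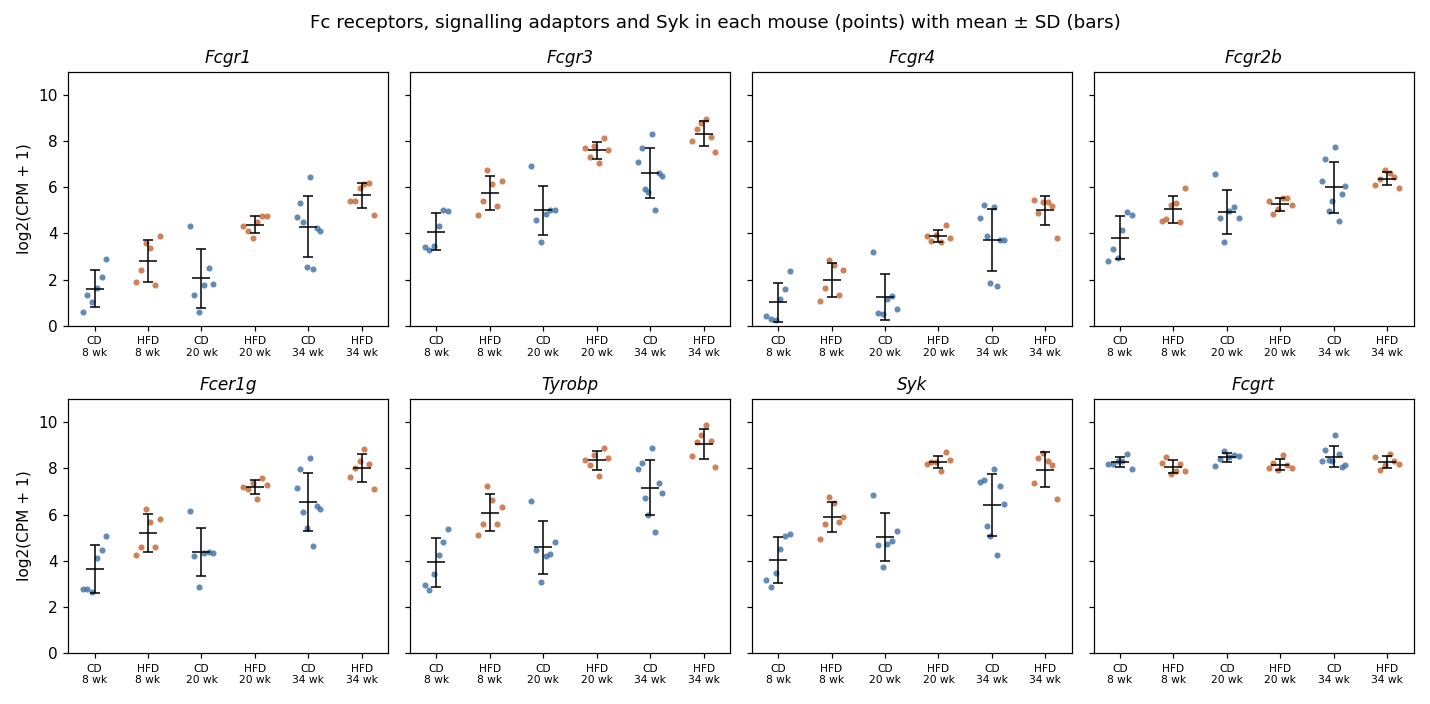
Level of each of the 8 genes as log2(CPM + 1) (vertical axis) in each mouse (points) of the 6 groups of diet and weeks (horizontal axis; blue CD, orange HFD), with mean ± SD as bars. Fcgrt stayed near the same level in all groups, the other 7 genes had their lowest mean in CD at 8 weeks, and 1 CD mouse at 20 weeks stood high in all 7.

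Fcgr3, the low-affinity activating IgG receptor, had the most reads of the 4 IgG receptors in every group. At 8 weeks it ran from 8.64 to 31.2 CPM with a median of 14.5 in CD, and from 26.8 to 105.6 with a median of 56.0 in HFD. At 20 weeks the CD values ran from 11.5 to 119.8 with a median of 29.7, and the HFD values from 133.6 to 276.0 with a median of 202.7. The diets did not overlap at 20 weeks, whereas at 8 weeks 5 of 6 HFD values exceeded the highest CD value. At 34 weeks the values ran from 31.2 to 319.7 CPM in CD, median 92.8, and from 182.4 to 492.0 in HFD, median 326.5, and 3 of 6 HFD values exceeded the highest CD value. The log2 fold change was 1.69 ± 0.46 (SE) at 8 weeks (adjusted p = 0.00362), 2.59 ± 0.46 at 20 weeks (adjusted p = 1.56e-05) and 1.70 ± 0.43 at 34 weeks (adjusted p = 0.0021). With the macrophage covariate the values were 0.55 (adjusted p = 0.00812), 1.00 (adjusted p = 4.89e-05) and 0.39 (adjusted p = 0.107), so that the call at 34 weeks was lost.

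Fcgr1, the high-affinity IgG receptor, was low in young CD mice. Its values in CD at 8 weeks ran from 0.529 to 6.50 CPM with a median of 1.84, which rested on 6 to 82 reads per mouse, and in HFD from 2.36 to 13.7 with a median of 6.78. At 20 weeks the CD values ran from 0.515 to 19.2 CPM, median 2.49, and the HFD values from 13.1 to 26.3, median 20.2. At 20 weeks 3 of 6 HFD values exceeded the highest CD value, and all 6 exceeded the CD mean. At 34 weeks the range was 4.49 to 86.0 CPM in CD, median 19.7, and 26.6 to 72.1 in HFD, median 52.0, with no HFD mouse above the highest CD mouse. The fold change was 1.19 ± 0.54 at 8 weeks and was not called (adjusted p = 0.0692), then 2.32 ± 0.54 at 20 weeks (adjusted p = 0.000484) and 1.36 ± 0.50 at 34 weeks (adjusted p = 0.0285). It was called at 8 weeks with array weights (1.69, adjusted p = 0.000102), in a fit of those 2 groups only (adjusted p = 0.0384), with a pseudocount of 0.25 (adjusted p = 0.048), with DESeq2 (adjusted p = 0.0488), and on leaving out CD mouse 6 or HFD mouse 1 or 5 at 8 weeks, CD mouse 1 at 20 weeks or CD mouse 5 at 34 weeks (adjusted p from 0.0346 to 0.0471). The call at 34 weeks was lost in a fit of those 2 groups only (adjusted p = 0.0716), with edgeR (adjusted p = 0.148), with DESeq2 (adjusted p = 0.166), and without CD mouse 4 or 6 or HFD mouse 3, 4 or 5 (adjusted p from 0.0597 to 0.0758). With the macrophage covariate Fcgr1 was called at no time (0.05, 0.71 and 0.04, adjusted p = 0.922, 0.138 and 0.959).

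Fcgr4, an activating receptor of mouse monocytes and macrophages, had the lowest CPM of the members in each group. It ran from 0.189 to 4.20 CPM in CD at 8 weeks, median 0.778, where the lowest mouse rested on 2 reads, and from 1.14 to 6.20 in HFD, median 3.23. At 20 weeks CD ran from 0.441 to 8.26 CPM, median 0.946, and HFD from 11.4 to 19.8, median 13.4. The groups at 20 weeks did not overlap. At 34 weeks CD ran from 2.29 to 36.2 CPM, median 12.9, and HFD from 12.9 to 42.6, median 37.5. HFD exceeded CD by 0.98 ± 0.50 at 8 weeks (adjusted p = 0.109), 2.64 ± 0.50 at 20 weeks (adjusted p = 4.43e-05) and 1.27 ± 0.47 at 34 weeks (adjusted p = 0.0288). It was called at 8 weeks with array weights (1.37, adjusted p = 0.0004), with a pseudocount of 0.25 (adjusted p = 0.0479) and without CD mouse 6 of that time (1.26, adjusted p = 0.0473). With that pseudocount the call at 34 weeks was lost (adjusted p = 0.0569). At 34 weeks the call was lost with edgeR (adjusted p = 0.152), with DESeq2 (adjusted p = 0.191), in a fit of those 2 groups only (adjusted p = 0.0955), and without CD mouse 4 or 6 or HFD mouse 1, 3 or 4 (adjusted p from 0.0522 to 0.0807). With the macrophage covariate it was called at 20 weeks (1.16, adjusted p = 0.0112) and not at 8 weeks (-0.065, adjusted p = 0.894) or 34 weeks (0.053, adjusted p = 0.936).

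Fcgr2b, the inhibitory receptor, did not follow the activating receptors after 8 weeks. At 8 weeks its values ran from 6.08 to 29.3 CPM in CD, median 12.7, and from 21.8 to 62.3 in HFD, median 30.4, a fold change of 1.22 ± 0.44 (adjusted p = 0.0229). This call was lost with edgeR (adjusted p = 0.0634) and without CD mouse 1, 2 or 3 or HFD mouse 6 at 8 weeks (adjusted p from 0.0507 to 0.069). At 20 weeks the values ran from 11.3 to 94.6 CPM in CD, median 27.4, and from 27.3 to 45.6 in HFD, median 39.0. At 34 weeks they ran from 21.9 to 216.2 CPM in CD, median 58.5, and from 61.8 to 108.0 in HFD, median 83.9. In both older pairs of groups the HFD values lay inside the range of the CD values. The fold change was 0.33 at 20 weeks (95% interval -0.56 to 1.22, adjusted p = 0.538) and 0.38 at 34 weeks (95% interval -0.45 to 1.21, adjusted p = 0.456), and its sign turned in the count tests. With the macrophage marker mean as a covariate, Fcgr2b was not called at 8 weeks (0.17, adjusted p = 0.507) and was called lower in HFD at 20 weeks (log2 fold change -1.15, adjusted p = 5.45e-05) and at 34 weeks (-0.84, adjusted p = 0.00347).

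Of the adaptors, Tyrobp had the largest fold change of the members at each time. It ran from 5.63 to 40.7 CPM in CD at 8 weeks, median 13.9, and from 33.3 to 150.3 in HFD, median 63.6. At 20 weeks CD ran from 7.51 to 95.6 CPM, median 20.0, and HFD from 203.8 to 472.3, median 339.9. The diets were fully apart at 20 weeks. At 34 weeks CD ran from 36.6 to 470.4 CPM, median 143.3, and HFD from 263.5 to 946.7, median 575.9, with 4 of 6 HFD values above the CD range. Tyrobp rose by 2.16 ± 0.52 at 8 weeks (adjusted p = 0.00143), 3.77 ± 0.52 at 20 weeks (adjusted p = 5.47e-07) and 1.88 ± 0.49 at 34 weeks (adjusted p = 0.00273). With the macrophage covariate Tyrobp stood at 0.90 (adjusted p = 0.00237), 2.00 (adjusted p = 7.97e-07) and 0.42 (adjusted p = 0.211), and the call at 34 weeks was lost.

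Fcer1g, the adaptor that the activating IgG receptors need at the surface, rose by less. Its values at 8 weeks ran from 5.21 to 32.7 CPM in CD, median 11.04, and from 17.8 to 74.3 in HFD, median 36.6. At 20 weeks they ran from 6.33 to 69.5 CPM in CD, median 18.9, and from 101.7 to 191.4 in HFD, median 150.4, without overlap. At 34 weeks they ran from 23.6 to 353.4 CPM in CD, median 78.3, and from 135.3 to 462.9 in HFD, median 271.3. Fcer1g rose by 1.55 ± 0.52 at 8 weeks (adjusted p = 0.0148), 2.83 ± 0.52 at 20 weeks (adjusted p = 2.49e-05) and 1.47 ± 0.48 at 34 weeks (adjusted p = 0.0141). At 34 weeks the call was lost with edgeR (adjusted p = 0.06), with DESeq2 (adjusted p = 0.0526) and in a fit of those 2 groups only (adjusted p = 0.0507). The macrophage covariate ended its call at 8 weeks (0.29, adjusted p = 0.276) and at 34 weeks (0.013, adjusted p = 0.975) but not at 20 weeks (1.06, adjusted p = 0.00044).

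Syk, the kinase shared by both adaptors, was the member whose mean was highest at 20 weeks of HFD and not at 34 weeks. At 8 weeks it ran from 6.36 to 34.5 CPM in CD, median 15.99, and from 30.01 to 108.3 in HFD, median 54.4. At 20 weeks it ran from 12.1 to 115.6 CPM in CD, median 26.8, and from 234.7 to 418.7 in HFD, median 306.8, without overlap. At 34 weeks it ran from 18.03 to 250.3 CPM in CD, median 118.6, and from 101.9 to 401.1 in HFD, median 302.6. Syk rose by 1.85 ± 0.52 at 8 weeks (adjusted p = 0.00483), 3.26 ± 0.52 at 20 weeks (adjusted p = 4.07e-06) and 1.51 ± 0.49 at 34 weeks (adjusted p = 0.013). In a fit of those 2 groups only, the call at 34 weeks was lost (adjusted p = 0.061). In HFD the means at 20 and 34 weeks were 314.8 ± 59.9 (SD, n = 6) and 268.9 ± 114.3 (SD, n = 6) CPM. That difference was not called (log2 -0.35, adjusted p = 0.641). With the macrophage covariate Syk was called at 8 weeks (0.61, adjusted p = 0.0447) and 20 weeks (1.52, adjusted p = 4.11e-05) and not at 34 weeks (0.072, adjusted p = 0.871).

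Fcgrt, the neonatal Fc receptor, had the highest mean CPM of the members in every group except HFD at 20 and 34 weeks, and hardly moved. Its group means lay between 272.9 ± 55.3 (SD, n = 6) CPM in HFD at 8 weeks and 380.5 ± 142.8 (SD, n = 8) CPM in CD at 34 weeks. At 20 weeks it ran from 276.9 to 425.0 CPM in CD, median 364.3, and from 243.2 to 382.8 in HFD, median 269.5, and 3 of 6 HFD values lay under the CD range. Its log2 difference between diets was -0.20 at 8 weeks (95% interval -0.54 to 0.14, adjusted p = 0.339), -0.32 at 20 weeks (95% interval -0.66 to 0.02, adjusted p = 0.107) and -0.21 at 34 weeks (95% interval -0.54 to 0.11, adjusted p = 0.278). The scale mattered for this gene. TMM factors moved the median of all genes at 20 weeks by -0.21 and median-of-ratios factors by -0.16, and Fcgrt was then called lower in HFD at 20 weeks (-0.54, adjusted p = 0.0102, and -0.49, adjusted p = 0.0197), as it was in 4 other settings and without HFD mouse 4 at 20 weeks (-0.40, adjusted p = 0.0452) or CD mouse 5 at 34 weeks (adjusted p = 0.0479). Relative to the median of all genes, Fcgrt was lower by -0.46 at 20 weeks on the deposited scale and by -0.46 with either set of factors. Within CD at 34 weeks, mouse 5 stood at 703.2 CPM, the highest Fcgrt value of the series. At 8 weeks Fcgrt was called lower in HFD with array weights (-0.38, adjusted p = 0.00257). The macrophage covariate left Fcgrt uncalled at each time (-0.25, -0.39 and -0.28, adjusted p = 0.285, 0.118 and 0.334).

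For 5 of 8 members (Fcgr3, Fcgr4, Fcer1g, Tyrobp and Syk) the lowest HFD value at 20 weeks exceeded the highest CD value, as it did for 26.1% of all tested genes. At 8 weeks and at 34 weeks this held for no member, beside 15.7% and 1.47% of tested genes. The CD group at 20 weeks held 1 mouse, mouse 1, that was the highest of its group for all members but Fcgrt, with 94.6 CPM of Fcgr2b and 95.6 CPM of Tyrobp. Without it, the same number of members, 6, was called at 20 weeks. In CD at 34 weeks mouse 5 was highest for 7 members and mouse 6 lowest for 7, and the SD of log2 values in this group, 1.08 to 1.34 for the 7 members other than Fcgrt, was the largest of the 6 groups for each of them. At 8 weeks the CD mice had 10562845 to 12611013 reads and the HFD mice 13201234 to 15480388, so depth and diet were not separated there.

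**Figure D2:**
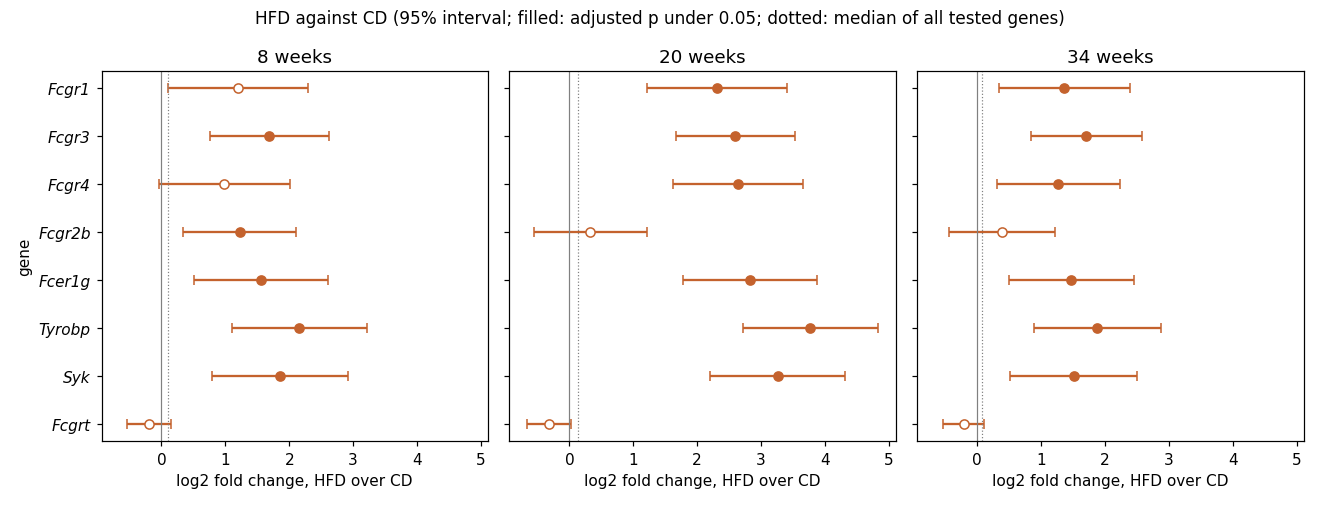
Log2 fold change of HFD over CD (horizontal axis) for each gene (vertical axis) at 8, 20 and 34 weeks, with 95% intervals. Filled points have an adjusted p under 0.05, and the dotted line is the median of all tested genes: 5, 6 and 6 of 8 points are filled, and Fcgr2b and Fcgrt are open at 20 and 34 weeks.

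Per kilobase of exon, the order of the members differed between groups. The length was the union of all annotated exons in GENCODE vM21, whereas the authors counted reads on vM2. It was 5790 bases for Fcgr2b, 2589 for Fcgr1 and 1256 for Fcgr4. A union longer than the transcripts present lowers the value of a gene, so the order between genes depends on these lengths. In CD at 8 weeks the mean level of Fcgrt was 148.1 CPM per kb, above Tyrobp with 26.9, Fcer1g with 16.6, Fcgr3 with 10.4, Fcgr2b with 2.71, Syk with 2.02, Fcgr4 with 1.08 and Fcgr1 with 0.973. In HFD at 20 weeks Tyrobp stood at 504.2 CPM per kb and Fcer1g at 170.2, above Fcgrt with 136.9. Fcgr3 then stood at 114.3, Syk at 33.6, Fcgr4 at 11.1, Fcgr1 at 7.88 and Fcgr2b at 6.60. In CD at 34 weeks Tyrobp, with 282.8, also stood above Fcgrt, with 181.0. Fcgr2b stood above Fcgr1 and Fcgr4 per kilobase in CD at 8 weeks and below both in HFD at 20 weeks.

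Ratios within a mouse show how the members moved against each other, since any factor that scales both genes of a mouse alike cancels apart from the pseudocount. For 6 ratios at 3 times, 18 differences were tested with exact two-sided permutation tests over mice, adjusted over the 18, and 13 had an adjusted p under 0.05, of which 2 fell at 8, 6 at 20 and 5 at 34 weeks. The smallest p these tests can give is 0.00216 with 6 against 6 mice and 0.000333 with 6 against 8.

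The ratio of activating to inhibitory receptor was raised by HFD at 20 and 34 weeks. At 20 weeks the log2 ratio of Fcgr3 to Fcgr2b ran from -0.12 to 0.34 in CD, mean 0.06, and from 1.53 to 2.70 in HFD, mean 2.33. The difference was 2.27 (exact permutation, adjusted p = 0.00524), and the diets did not overlap. At 34 weeks it ran from 0.38 to 0.94 in CD and from 1.54 to 2.33 in HFD, again without overlap, a difference of 1.32 (exact permutation, adjusted p = 0.003). At 8 weeks the difference was 0.47 (exact permutation, adjusted p = 0.0545), and it passed without CD mouse 1 or HFD mouse 1 or 6 (adjusted p from 0.027 to 0.039). Reads from the stretches that Fcgr3 and Fcgr2b share bear on this ratio, and their number was not known.

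Fcgr1 to Fcgr2b and Fcgr4 to Fcgr2b gave the same picture at 20 weeks and no rise at 8 weeks. The log2 ratio of Fcgr1 to Fcgr2b had a mean of -2.88 ± 0.40 (SD, n = 6) in CD and -0.89 ± 0.29 (SD, n = 6) in HFD at 20 weeks, a difference of 1.99 (exact permutation, adjusted p = 0.00524). At 34 weeks the difference was 0.98 (exact permutation, adjusted p = 0.014), and at 8 weeks -0.03 (exact permutation, adjusted p = 0.916). For Fcgr4 to Fcgr2b the differences were 2.31 at 20 weeks (exact permutation, adjusted p = 0.00524), 0.88 at 34 weeks (exact permutation, adjusted p = 0.0401) and -0.24 at 8 weeks (exact permutation, adjusted p = 0.362). The call at 34 weeks for Fcgr4 to Fcgr2b was lost on leaving out any of 9 of the 14 mice of that time, CD mice 4, 5, 6 and 8 and HFD mice 1 to 5, with adjusted p from 0.0503 to 0.083. Fcgr1 and Fcgr4 were low in CD, and the pseudocount of 1 draws their ratios toward 0.

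The adaptors did not rise in step. The log2 ratio of Fcer1g to Tyrobp was lower in HFD at all 3 times: by -0.60 at 8 weeks (exact permutation, adjusted p = 0.00779), by -0.94 at 20 weeks (adjusted p = 0.00524 by the same exact test) and by -0.41 at 34 weeks (exact permutation, adjusted p = 0.00524). At 20 weeks it ran from -0.49 to 0.10 in CD and from -1.30 to -0.996 in HFD. Its spread in HFD was narrow, with an SD of 0.11 at 20 weeks and 0.11 at 34 weeks (n = 6 each).

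Syk fell behind Tyrobp at 20 weeks, where the log2 ratio ran from 0.20 to 0.62 in CD and from -0.31 to 0.20 in HFD, a difference of -0.51 (exact permutation, adjusted p = 0.00779). At 8 and 34 weeks the differences were -0.30 and -0.37 (exact permutation, adjusted p = 0.0501 and 0.0708), values close enough to the threshold that leaving out single mice brought them under it (adjusted p from 0.015 to 0.0495). Those mice were CD mouse 6 and HFD mice 2 and 5 at 8 weeks and CD mouse 3 at 34 weeks for the former, and CD mouse 3 and HFD mouse 2 at 34 weeks for the latter. Both differences also passed with a pseudocount of 4 (exact permutation, adjusted p = 0.0481 for each). A pseudocount of 0.25 brought only the former under the threshold (exact permutation, adjusted p = 0.0473), and limma on the ratios only the latter (adjusted p = 0.016). The Fcgrt to Tyrobp ratio was lower in HFD by -2.36 at 8 weeks (exact permutation, adjusted p = 0.0106), by -4.09 at 20 weeks (exact permutation, adjusted p = 0.00524) and by -2.09 at 34 weeks (exact permutation, adjusted p = 0.003). Differences between times in these ratios were not tested.

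**Figure D3:**
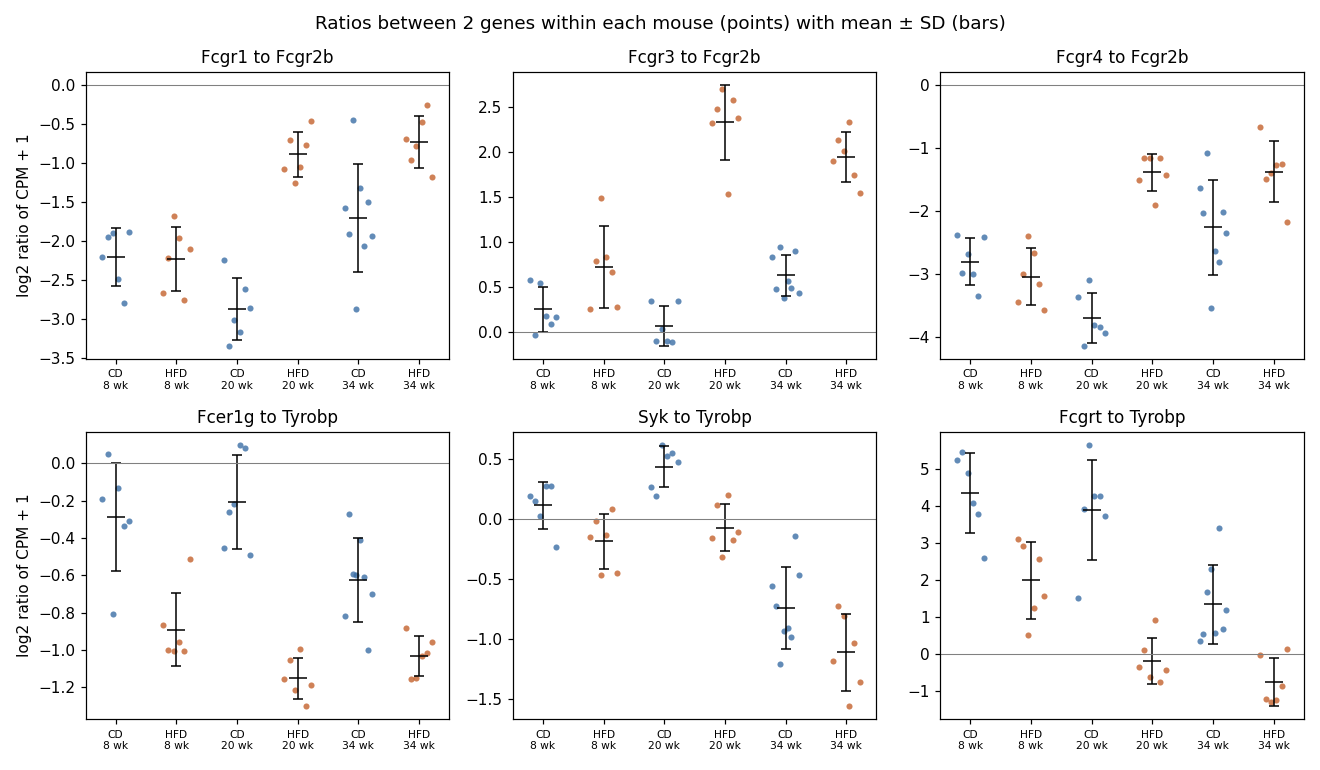
Log2 ratio of CPM + 1 between 2 genes (vertical axis) in each mouse (points) of the 6 groups (horizontal axis; blue CD, orange HFD), with mean ± SD as bars. Fcgr3 to Fcgr2b separates the HFD and CD mice at 20 and 34 weeks, with means of 2.33 against 0.06 and 1.94 against 0.63, and Fcer1g to Tyrobp lies lower in HFD at each time.

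Over time, the members other than Fcgrt were higher at 34 than at 8 weeks in both diets. Each time was a separate set of mice of another age. Age, cohort and, in CD, any change of control formula cannot be told apart from weeks on the diet. In CD no member was called between 8 and 20 weeks by limma, edgeR or DESeq2, with 2 members at an unadjusted p under 0.05, beside 3.58% of tested genes called. Between 20 and 34 weeks in CD 7 of 8 were called, all higher, beside 62.5% of tested genes, and between 8 and 34 weeks 7 of 8, all higher, beside 64.7%. The member left out was Fcgrt in both cases. The rise between 20 and 34 weeks in CD was 2.58 ± 0.49 for Tyrobp (adjusted p = 3.42e-05), 2.49 ± 0.47 for Fcgr4 (adjusted p = 3.5e-05), 2.23 ± 0.50 for Fcgr1 (adjusted p = 0.000318) and 1.05 ± 0.41 for Fcgr2b (adjusted p = 0.025). The 2 CD groups at 20 and 34 weeks overlapped for each of these 4 genes.

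In HFD, between 8 and 20 weeks, 6 of 8 members were called, all higher, beside 36.5% of tested genes: Syk by 2.39 ± 0.52 (adjusted p = 0.000866), Tyrobp by 2.27 ± 0.52 (adjusted p = 0.00132), Fcer1g by 2.01 ± 0.52 (adjusted p = 0.00325), Fcgr4 by 1.88 ± 0.50 (adjusted p = 0.00444), Fcgr3 by 1.84 ± 0.46 (adjusted p = 0.00251) and Fcgr1 by 1.57 ± 0.54 (adjusted p = 0.0224). Fcgr2b changed by 0.23 ± 0.44 over that interval (adjusted p = 0.7). With the macrophage marker mean as a covariate, 1 member in place of 6 was called. Between 20 and 34 weeks in HFD no member was called by limma, with 3 at an unadjusted p under 0.05, none with edgeR and 1 with DESeq2, beside 30.2% of tested genes called. The count of 0 was not firm. It was 2 without CD mouse 1 at 20 weeks or CD mouse 5 at 34 weeks, 1 without any of 9 other mice (CD mice 1, 5 and 6 and HFD mouse 6 at 8 weeks, CD mouse 3 at 20 weeks, and CD mice 2, 3 and 6 and HFD mouse 6 at 34 weeks), and 5 in a fit of those groups only. Between 8 and 34 weeks in HFD 7 of 8 were called, all higher, beside 52.5%, and Fcgr2b was among them (1.34 ± 0.44, adjusted p = 0.0105).

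The size of the diet difference was then compared between times. No member had a diet difference that differed between 8 and 20 weeks, between 20 and 34 weeks or between 8 and 34 weeks by limma, edgeR or DESeq2, beside 4.49%, 10.5% and 28.8% of tested genes called. At an unadjusted p under 0.05 there were 2, 2 and 0 members. The lowest adjusted p was that of Tyrobp between 20 and 34 weeks, whose diet difference was smaller at 34 weeks by -1.89 ± 0.71 (adjusted p = 0.0805). Without CD mouse 1 at 20 weeks, 1 member was called between 8 and 20 weeks and 2 between 20 and 34 weeks, and without CD mouse 6 at 34 weeks 2 were called in the latter. With array weights, which weigh mice by how far they stray from their group, 4 members were called in each of these intervals. The larger fold changes at 20 weeks are therefore values that were not separated from those at 8 and 34 weeks in the fit with equal weights.

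The rest of the pathway was read from lists of 124 genes by role, of which 118 were in the table and 70 passed the filter on low values. Of these 70, 47 were called higher and 4 lower in HFD at 8 weeks, 58 higher and 4 lower at 20 weeks, and 53 higher and 3 lower at 34 weeks. Of all tested genes 29.8%, 38.3% and 27.5% were called higher at these times, and 44.9%, 57.0% and 43.2% were called in either direction. The counts of single lists given below stand beside these same shares. Their median log2 fold change was 1.33, 2.32 and 1.57 at the 3 times, beside 0.11, 0.14 and 0.07 for all tested genes. The lists were chosen with earlier results of these data known, and macrophages express most of their genes.

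Src family kinases, which phosphorylate ITAMs, were higher in HFD for 5 of 6 tested genes at 8 and at 20 weeks and for 3 at 34 weeks, where Yes1 was lower (-0.44, adjusted p = 0.00204). Lyn, which also phosphorylates ITIMs, had a mean of 21.3 ± 13.9 (SD, n = 6) CPM in CD and 83.1 ± 14.6 (SD, n = 6) CPM in HFD at 20 weeks. It rose by 2.08 ± 0.37 on the log2 scale (adjusted p = 1.9e-05). Fyn had the largest rise of the list, 3.05 ± 0.44 (adjusted p = 9.83e-07).

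Genes that carry the signal from Syk were called higher for 19 of 22 tested and lower for 2 at 20 weeks. The adaptor Lat2 had the largest rise (4.04 ± 0.55, adjusted p = 4.35e-07). The phospholipase Plcg2 rose by 2.57 ± 0.43 (adjusted p = 7.82e-06), the kinase Btk by 2.51 ± 0.45 (adjusted p = 1.73e-05), the exchange factor Vav1 by 2.39 ± 0.47 (adjusted p = 7.33e-05), the scaffold Card9 by 2.05 ± 0.38 (adjusted p = 3.36e-05) and the adaptor Lcp2 by 1.92 ± 0.47 (adjusted p = 0.000909). Both genes that fell are the widely expressed Pik3r1, a regulatory subunit of PI 3-kinase (-0.59 ± 0.17, adjusted p = 0.00356), and Plcg1 (-0.48, adjusted p = 0.0022). At 8 weeks 14 were higher and 2 lower, and at 34 weeks 19 were higher and none lower.

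A further list held phosphatases, ubiquitin ligases, the kinase Csk and the adaptors Dok1, Dok2 and Pag1, which regulate the pathway. At 20 weeks 8 of its 12 genes were higher, with none lower. Ptpn6, the phosphatase SHP-1, rose by 3.40 ± 0.49 (adjusted p = 9.28e-07), with 1.03 to 23.9 CPM in CD and 42.8 to 76.8 in HFD. Inpp5d, the partner of Fcgr2b, rose by 2.33 ± 0.45 (adjusted p = 5.53e-05), while Fcgr2b itself was not called at that time. Inpp5d ran from 5.37 to 37.7 CPM in CD and from 52.3 to 89.8 CPM in HFD. At 8 weeks 6 of the 12 were higher and Cblb was lower (-0.62, adjusted p = 0.0205), and at 34 weeks 8 were higher and Pag1 lower (-0.47, adjusted p = 0.0436).

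Receptors that couple to Fcer1g or Tyrobp, or signal to Syk by a motif of their own, were higher for all 8 tested genes at 20 weeks, for 6 at 8 weeks and for 7 at 34 weeks. The lipid receptor Trem2 had the largest rise at 20 weeks (5.07 ± 0.61, adjusted p = 7.51e-08), from 2.13 to 56.7 CPM in CD to 158 to 376 in HFD, and rose by 2.90 at 8 weeks (adjusted p = 0.000331) and 2.28 at 34 weeks (adjusted p = 0.0019). Clec7a, the beta-glucan receptor Dectin-1, rose by 3.75 ± 0.53 at 20 weeks (adjusted p = 7.63e-07). Clec4n, the Fcer1g-coupled receptor Dectin-2, was under the filter and had medians of 1.46 CPM in CD and 2.40 in HFD at 20 weeks.

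Inhibitory receptors other than Fcgr2b were higher for 10 of 11 tested genes at 20 weeks, for 7 at 8 weeks and for 9 at 34 weeks, with none lower at any time. Cd72 had the largest rise at 20 weeks (4.11 ± 0.58, adjusted p = 7.69e-07). Pirb, an ITIM receptor of myeloid cells, rose by 3.11 ± 0.51 (adjusted p = 5.65e-06) and Sirpa, the receptor of CD47, by 2.85 ± 0.42 (adjusted p = 1.13e-06). Of the tested genes of this list, Cd33 (0.43, adjusted p = 0.328) was, like Fcgr2b, not called at 20 weeks. The list was set by role, and its receptors were not searched for motifs. Whether the change of Fcgr2b differed from that of Pirb or Sirpa was not tested.

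ITAM subunits of lymphocytes and mast cells were near 0, and none of the 8 on the list passed the filter. At 20 weeks in HFD the mean was 0.0707 CPM for Cd3e, 0.927 for Cd247, 0.348 for Cd79a and 0.0837 for Ms4a2. Hcst, the adaptor DAP10, which has no ITAM and lies next to Tyrobp, was likewise under the filter, with 0.147 to 1.12 CPM in CD and 2.27 to 3.96 CPM in HFD at 20 weeks, without overlap. Fcer1a, the alpha chain of the IgE receptor, was at 0 in all CD mice at 8 and at 20 weeks and ran from 0.207 to 1.47 CPM in HFD at 20 weeks. The summed CPM of the mast cell markers Cpa3, Mcpt4, Tpsb2, Cma1, Ms4a2 and Kit ran from 3.50 to 9.57 in CD and from 17.0 to 54.3 in HFD at that time. Markers of T cells, NK cells and B cells summed to at most 4.42, 0.76 and 5.90 CPM in any mouse, and the neutrophil markers to between 1.89 and 44.8 CPM, with Ly6g at 0 in all mice. Of the 2 neutrophil markers tested, S100a8 was called higher at 8 weeks (1.56, adjusted p = 0.0034). At 20 weeks markers of endothelial cells were higher for 5 of 6 tested genes (Pecam1 by 1.28), of progenitors for 5 of 5 (Col1a1 by 3.66) and of platelets for 1 of 1 (Pf4 by 1.25), both tested dendritic cell markers were lower (Itgae by -1.46), and none of the 2 neutrophil, 2 erythroid and 1 mast cell markers tested was called. Of 8 genes of lipid-associated macrophages 7 were higher, Gpnmb most (6.66), and Lpl, which adipocytes also express, was lower (-0.40). The part of these cells in the values of the members was not tested.

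Of the 11 partners and ligands of the Fc receptors in the table, 4 passed the filter, and these moved in mixed directions. The IgG heavy chains Ighg1, Ighg2b, Ighg2c and Ighg3, whose products the IgG receptors bind, were under the filter and were not tested. All of them were at 0 in every CD mouse at 8 weeks. B2m, the light chain of the neonatal receptor, was higher in HFD at 8 weeks (0.67 ± 0.17, adjusted p = 0.00191) and at 20 weeks (0.50 ± 0.17, adjusted p = 0.0121) and not called at 34 weeks (0.14, adjusted p = 0.499). Alb, the albumin gene, whose product is the other ligand of this receptor, was lower at 20 weeks (-2.56 ± 0.34, adjusted p = 2.76e-07), from 12.7 to 22.6 CPM in CD to 1.21 to 3.34 CPM in HFD, and at 34 weeks (-2.14, adjusted p = 1.26e-05). Ighm, the IgM heavy chain, was higher at 8 weeks (2.36 ± 0.35, adjusted p = 6.49e-06) and at 20 weeks (1.44 ± 0.35, adjusted p = 0.000789), and Igkc, the kappa light chain, was higher at all 3 times (1.27, 1.69 and 1.40, adjusted p = 0.036, 0.00433 and 0.0147). Trim21, the cytosolic Fc receptor, was lower at 8 and 20 weeks (-0.73 and -0.51, adjusted p = 0.000625 and 0.00843) and higher at 34 weeks (0.41, adjusted p = 0.03). Fcrls, an Fc receptor-like gene, was higher at 8 weeks (1.48, adjusted p = 0.00438) and not called later.

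The 5 subunits of the phagocyte oxidase, an effector that ITAM signalling switches on, were higher in HFD at all 3 times. Cybb, its catalytic subunit, ran from 14.6 to 195 CPM in CD and from 272 to 618 CPM in HFD at 20 weeks (3.28 ± 0.52, adjusted p = 3.68e-06). Ncf1 rose by 3.02 ± 0.49 (adjusted p = 5.08e-06) and Cyba by 3.61 ± 0.51 (adjusted p = 6.42e-07).

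**Figure D4:**
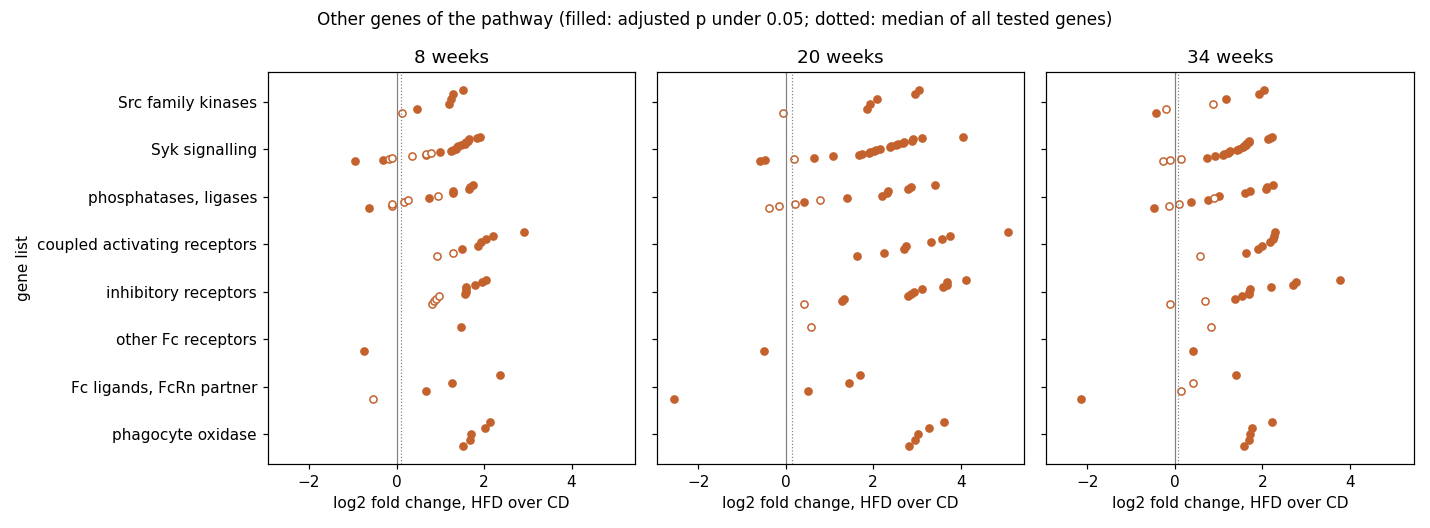
Log2 fold change of HFD over CD (horizontal axis) for each tested gene of 8 role lists (vertical axis) at 8, 20 and 34 weeks, the members themselves left out. Filled points have an adjusted p under 0.05 and the dotted line is the median of all tested genes; 51, 62 and 56 of 70 points are filled.

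Across the 38 mice the 7 members other than Fcgrt varied together. Pearson's r of log2(CPM + 1) for their 21 pairs ran from 0.778 to 0.989, with a median of 0.953, and with group means subtracted from 0.833 to 0.975. The 7 pairs with Fcgrt had r from -0.12 to 0.17. With the mean log2(CPM + 1) of the 10 macrophage markers, r was 0.966 for Fcgr3, 0.951 for Fcer1g, 0.949 for Syk, 0.936 for Tyrobp, 0.895 for Fcgr1, 0.884 for Fcgr4, 0.866 for Fcgr2b and 0.0355 for Fcgrt. These are descriptions over mice that share libraries, diets and times.

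Among all tested genes, those most like each member were named by the highest r over the 38 mice. For Fcgr3 they were C1qb (0.993), Cd68 (0.991) and Evi2a (0.990), for Fcer1g Lgmn (0.995), Laptm5 (0.991) and Lyz2 (0.990), for Tyrobp Cyba (0.995), Cotl1 (0.994) and Selplg (0.993), and for Syk Myo1g (0.991), Nckap1l (0.990) and Wdfy4 (0.988). Fcgr1 and Fcgr4 both had Lgmn first (0.971 and 0.974), followed by Pycard and AI662270 for Fcgr1 and by AB124611 and Enpp1 for Fcgr4. With group means subtracted, Ccl9 and Tlr1 were among the first for Fcgr1, Pirb, Lgmn and Laptm5 were first for Fcgr3, Ctss, Lyn and Cotl1 for Fcgr4, Lgmn, Rac2 and Emp3 for Fcer1g, Cotl1, Cd68 and Lcp1 for Tyrobp, and Cd68, Nckap1l and Wdfy4 for Syk. Fcgr2b had lower values, with Cfp (0.941), Marchf1 (0.932) and Aoah (0.929) first, and with group means subtracted Mrc1 (0.953), the macrophage mannose receptor, Clec4a1 (0.948) and Ccl6 (0.939). Fcgrt had Apoe (0.787), Mrpl9 (0.780) and Grcc10 (0.778) first, and with group means subtracted Khk (0.831), Gstt2 (0.814) and Dusp22 (0.788).

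The macrophage marker mean entered as a covariate shows which differences remained at a given marker level. At 20 weeks Fcgr3, Fcgr4, Fcer1g, Tyrobp and Syk were still called higher in HFD, and at 34 weeks the 1 member called was Fcgr2b, lower in HFD. Of the pathway genes, 27, 48 and 18 of the 70 were called at 8, 20 and 34 weeks with this covariate, in place of 51, 62 and 56. The share of all tested genes called with this covariate is not given here. Whether the drop was particular to the members or the pathway genes was not tested. The covariate and the diet moved together, since the marker means of CD and HFD did not overlap at 20 weeks (5.92 to 8.12 in CD and 8.18 to 9.09 in HFD).

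**Figure D5:**
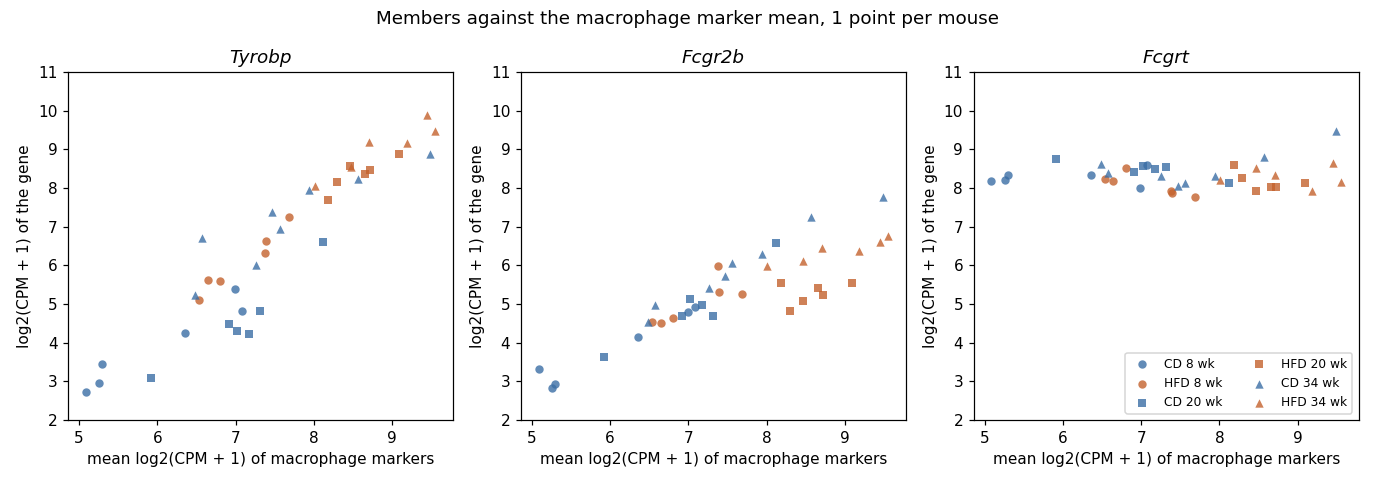
Log2(CPM + 1) of Tyrobp, Fcgr2b and Fcgrt (vertical axes) against the mean log2(CPM + 1) of 10 macrophage markers (horizontal axis), 1 point per mouse; blue CD, orange HFD, circles 8, squares 20 and triangles 34 weeks. Over the 38 mice r was 0.936 for Tyrobp, 0.866 for Fcgr2b and 0.0355 for Fcgrt.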

How the data were processed

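RNA was sequenced from the adipocyte fraction of 38 mice, with 3 technical replicates of each mouse merged by the authors into 1 column. According to the methods and the submitters' notes, the authors aligned reads to mm10 with STAR 2.5.2b, counted unambiguous reads on exon unions of GENCODE vM2 with featureCounts (Subread 1.5.1), discarded genes without an Entrez identifier and normalized with edgeR's TMM. Counting strand was not given in the sources used here. The deposited CPM values, made by the authors, sum to 1000000 in each mouse, which TMM-scaled values would not do, and they were read as plain CPM although the design had taken them for TMM-scaled. All values (100%) were whole reads within a tolerance of 0.1.

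Genes with a mean log2(CPM + 1) above 2.0 were kept (10343 of 29132). Tests were two-sided, from limma 3.58.1 (R 4.3.3) with an intensity trend and all 6 groups in 1 fit, with Benjamini-Hochberg adjustment over all genes tested and a threshold of 0.05. The fit was run on simulated counts with the same dispersion in every gene and group. That run does not test calls under the unequal spread of the members between groups. Ratios within a mouse were compared by exact permutation tests written in Python 3.11.15 with numpy 2.4.6, and by limma on the ratios as an alternative. Mice are separate animals, no batch was labelled, and same-numbered mice were not taken as pairs. Alternatives were other pseudocounts, filters and scalings, array weights, fits of only the groups compared, a replicate block, the macrophage marker mean as a covariate, leaving out each mouse, and edgeR 4.0.16 and DESeq2 1.42.0 on the whole reads. Named genes were the members, pathway genes listed by role, the called genes that rose or fell most in each list at 20 weeks, and the 3 genes most like each member. Members, lists and tests were chosen with earlier results of these data known. Genes named outside that rule (Yes1, Plcg1, Cblb, Pag1, Cd33, Fcrls and S100a8) were chosen after their values were seen. Results for 1 gene of that rule are not reported here. Promoter windows were from RefSeq, and positions from GRCm38.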

Additional observations from a re-analysis of the deposited data

Results flagged for a closer look

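Of 84 groups of values examined, 4 held a mouse whose distance from its nearest neighbour took up more of the group's range than Dixon's 95% limit of 0.625 for 6 samples, and chance gives about 1 in 20. Fcgr4 in CD mouse 1 at 20 weeks stood at 3.21 on the log2(CPM + 1) scale, above the next mouse at 1.30. Fcgr4 in HFD mouse 6 at 34 weeks stood at 3.79, below the next mouse at 4.88. The log2 ratio of Fcgr3 to Fcgr2b in HFD mouse 4 at 20 weeks was 1.53, with the nearest mouse at 2.32. The log2 ratio of Fcer1g to Tyrobp in HFD mouse 6 at 8 weeks was -0.51, with the nearest mouse at -0.86.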

How the results depend on the processing

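The number of members called for HFD against CD at 20 weeks was 6 or 7 under the alternatives. At 8 weeks it was 5 and became 8 with array weights, of which Fcgrt was lower in HFD, and 3 with the macrophage covariate. At 34 weeks it was 6 and became 2 with only the groups compared, 1 with the covariate, 3 with edgeR and 3 with DESeq2. For 20 against 8 weeks it became 1 with array weights in CD, and 1 with the covariate in HFD in place of 6. For 34 against 20 weeks in HFD, where it was 0, it became 3 with a pseudocount of 4, 1 with TMM factors, 5 with only the groups compared, 3 with array weights, 4 with the covariate and 1 with DESeq2, and 0 to 2 on leaving out single mice. For 34 against 8 weeks in HFD it became 4 with the covariate. For the diet difference, where it was 0, it became 1 with only the groups compared, 4 with array weights, 2 with the covariate and 0 to 1 on leaving out single mice between 8 and 20 weeks, 4 with array weights, 4 with the covariate and 0 to 2 on leaving out single mice between 20 and 34 weeks, and 1 with the covariate between 8 and 34 weeks. With the covariate the pathway genes called became 27 at 8 weeks and 18 at 34 weeks. The shares of all tested genes called under these alternatives are not given here. Whether the changed counts were particular to the members or the pathway genes was therefore not tested. Signs turned for Fcgr4 at 8 weeks (-0.065 with the covariate), for Fcgr2b at 20 weeks (-1.15 with the covariate, -0.11 with edgeR, -0.054 with DESeq2) and at 34 weeks (-0.84, -0.0069 and -0.024), and at a pseudocount of 0.25 for the ratios of Fcgr1 and Fcgr4 to Fcgr2b at 8 weeks (0.21 and 0.22). The ratio of Fcgr1 to Fcgr2b at 8 weeks ran from -0.15 to 0.080 on leaving out single mice. Of the 18 differences in ratios, 13 were called in the main test. It was 14 to 17 with other pseudocounts or limma on the ratios, and 12 to 15 on leaving out single mice. With a pseudocount of 4 the ratio of Fcgr4 to Fcgr2b at 8 weeks was called lower in HFD (-0.57, exact permutation, adjusted p = 0.0442). The cause of these changes was not tested. Of 288 fold changes of members under the alternatives that kept all mice, 245 kept their direction and side of the threshold, as did 890 of 912 on leaving out single mice.

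With mouse number as a replicate block, 5, 6 and 4 members were called at 8, 20 and 34 weeks, and 8 in CD between 8 and 34 weeks. The deviations of same-numbered mice correlated from -0.51 to 0.53, and 8 of 18 pairs exceeded 0.1. Differently numbered mice were not compared, so whether same-numbered mice shared a block was not tested. Depth limits Fcgr1 and Fcgr4 in young CD mice, where 1 mouse held 2 reads of Fcgr4.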
